A study of Mus musculus with 6 samples.

Results

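Side population (SP) cells are recognised by the dye they pump out, and antibodies against surface proteins are then used to say what kinds of cell the population holds. The genes described here encode 7 such proteins: *Ly6a* (Sca-1), *Cd34*, *Prom1* (CD133), *Ptprc* (CD45), *Thy1* (CD90), *Nt5e* (CD73) and *Alcam* (CD166). They were taken by name, not by their values, from a table of 50600 genes, and all 7 were found in it and were among the 13475 genes that passed the filter on low counts. The libraries hold polyadenylated RNA of cardiac SP cells freshly isolated from mice of 8 to 12 weeks, 3 libraries from wt mice (strain C57BL/6NRj) and 3 labelled flt3L-/- (strain C57BL/6Flt3Ltml/mx on a C57BL/6N background). The mutant strain lacks Flt3 ligand in the whole animal, so neither cell type nor time of loss was selected. Each library was made from 1 pool of 4 hearts, from which cardiomyocytes and erythrocytes had been depleted, and no other treatment was given to either group. On each of 3 dates 1 wt and 1 flt3L-/- pool were sorted, and these pairs are called 1 (22 August 2016), 2 (24 August 2016) and 3 (29 August 2017). The question was how far RNA of the marker genes differed between the genotypes, and by how much it differed from sort to sort.

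These proteins mark stem and progenitor cells in several organs, but none belongs to a single cell type. Sca-1 and CD90 are small proteins held in the membrane by a glycosylphosphatidylinositol (GPI) anchor, as is CD73, an enzyme that makes adenosine from AMP outside the cell. CD34 is a sialomucin of haematopoietic progenitors, endothelial cells and some fibroblasts, and CD133 is a membrane protein of cell protrusions. CD45 is the receptor tyrosine phosphatase of all nucleated blood cells and is widely used to separate them from other cells of a tissue. CD166 is an adhesion molecule of the immunoglobulin superfamily that binds CD6 on T cells.

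Total counts were between 26775161 and 28294568 in the wt libraries and between 24370913 and 31145519 in those labelled flt3L-/-, and levels are given below as CPM, counts scaled to the library size with TMM factors. At this depth 3 counts, used as a floor, were worth 0.109 to 0.127 CPM, and such floors, like the counting intervals below, cover counting error alone, since molecules were not tagged before amplification. *Flt3l*, the targeted gene, had 8.66, 10.8 and 12.1 CPM in wt pools 1 to 3 and 13.6, 12.4 and 14.4 CPM in the pools labelled flt3L-/-. Its reads were therefore not lower in the mutant, so this gene does not check the labels, and the second group is called the flt3L-/- labelled group. The annotated gene Gm45713 covers 22.1% of the exon bases of *Flt3l*. RNA of the dye pump *Abcg2*, a name added after its values were seen, averaged 182 CPM in wt and 221 CPM in the other group. Of the 12 endothelial markers, 12 passed the filter, and their summed level ranged from 9770 to 13200 CPM in wt and from 10567 to 15557 CPM in the flt3L-/- labelled group. The level of 12 fibroblast markers summed to 22861 to 45118 CPM in wt and to 10473 to 34379 CPM in the other group. Pair 3 stood apart in its leukocyte genes, as set out below, and values that rest on it are given also without it.

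The 7 genes spanned a wide range of levels. To compare genes with each other, counts were divided by the length of the merged exons, which gives RPKM, a level per kilobase. The median over the wt libraries was 686 RPKM for *Ly6a* (range 434 to 968) and 134 RPKM for *Cd34* (130 to 145). It was 13.5 RPKM for *Ptprc* (5.26 to 32.5) and 5.36 RPKM for *Prom1* (4.36 to 8.30). *Nt5e* followed with 2.61 RPKM (2.60 to 3.70), *Thy1* with 0.435 RPKM (0.0908 to 0.479) and *Alcam* with 0.240 RPKM (0.212 to 0.507). The ranges of *Ptprc* and *Prom1* overlapped, as did those of *Thy1* and *Alcam*, while the other neighbours in this order did not overlap. The order was the same in the flt3L-/- labelled group, where the medians were 916 RPKM for *Ly6a*, 147 for *Cd34*, 5.51 for *Ptprc*, 5.05 for *Prom1*, 2.38 for *Nt5e*, 0.185 for *Thy1* and 0.123 for *Alcam*. It was also the same when the longest transcript was used as the length. By mean CPM among all genes tested, *Ly6a* and *Cd34* both lay at percentile 99.4, *Ptprc* at 94.2, *Prom1* at 64.6, *Nt5e* at 50.2, *Alcam* at 7.21 and *Thy1* at 1.34.

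**Figure D1:**
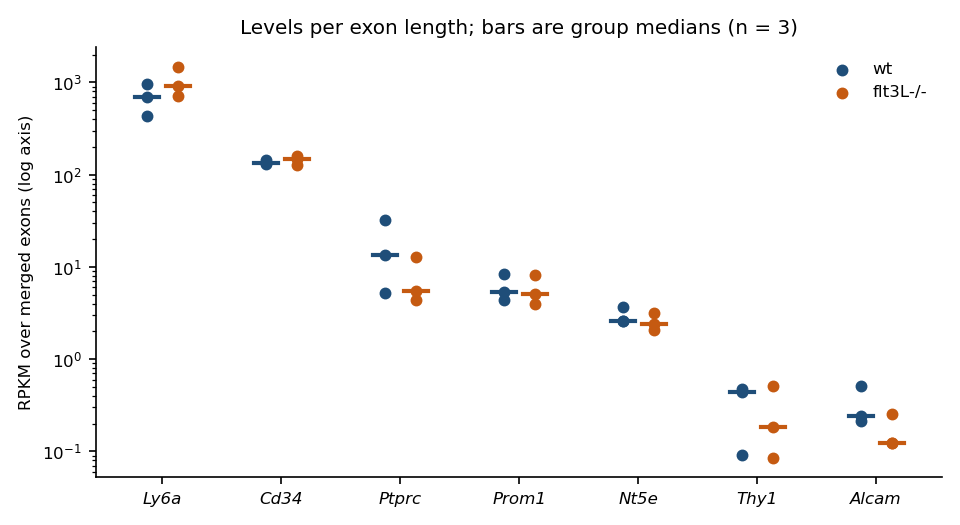
Levels of the 7 genes in RPKM over merged exons (log axis), with 1 point per library, blue for wt and orange for flt3L-/-, and a bar at each group median (n = 3). *Ly6a* and *Cd34* lie above 100 RPKM in all 6 libraries, and *Thy1* and *Alcam* below 1 RPKM.

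*Ly6a* (ENSMUSG00000075602) lies on the minus strand of chromosome 15 of GRCm38 from 74994877 to 74998031 and has 4 merged exons. Sca-1 is one of the proteins by which the study followed SP cells in flow cytometry. The wt libraries had 522, 827 and 1167 CPM in pairs 1, 2 and 3, and the flt3L-/- labelled group had 1104, 856 and 1789 CPM. The flt3L-/- library was thus the higher one in each pair, by 1.08, 0.051 and 0.62 on the log2 scale, but the groups overlapped, because the highest wt level exceeded 2 of the 3 levels in the other group. The group means were 839 ± 322 and 1250 ± 483 CPM (SD, n = 3), a fitted log2 fold change of 0.58 with a standard error (SE) of 0.24 and a 95% interval of −0.043 to 1.21. Its unadjusted p-value from the quasi-likelihood test of edgeR was 0.0619, the smallest of the 7, and its adjusted p over all genes was 0.973. The same test gave an unadjusted p of 0.0150 and an adjusted p of 0.546 without pair 2, where the log2 fold change was 0.83, and DESeq2 gave 0.0211 and 0.923. Of the 81-base stretches of *Ly6a* exons, the read length used, 54 of 1311 (4.12%) also occur in *Ly6c1*, so that a small part of the reads could be placed on either gene.

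*Cd34* (ENSMUSG00000016494) lies on the plus strand of chromosome 1 from 194938819 to 194961279. Its level differed least of the 7 between libraries, with 974, 1060 and 946 CPM in wt and 925, 1072 and 1171 CPM in the flt3L-/- labelled group in pairs 1, 2 and 3. The highest of the 6 levels was 1.27 times the lowest. The means were 993 ± 59.3 and 1056 ± 124 CPM (SD, n = 3), and the groups overlapped. The fitted log2 fold change was 0.083 (SE 0.16, adjusted p = 0.977 in edgeR), and its 95% interval ran from −0.33 to 0.50. In single pairs the difference was −0.074, 0.017 and 0.31, and without pair 3 the fitted value was −0.029. Flow cytometry of CD34 was a main readout of the study, and the RNA values describe the whole sorted population, not the share of CD34+ cells. In bulk RNA, fewer cells of a type and less RNA per cell cannot be told apart.

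*Ptprc* (ENSMUSG00000026395) lies on the minus strand of chromosome 1 from 138062861 to 138175708, and the deposited counts do not separate its isoforms. It was the most variable of the 7 genes, with a highest level 7.52 times the lowest. In wt it had 96.3, 246 and 595 CPM in pairs 1, 2 and 3, and in the flt3L-/- labelled group it had 101, 236 and 79.2 CPM. The members of pairs 1 and 2 were close to each other, whereas pair 3 held both the highest and the lowest of the 6 levels. In pairs 1, 2 and 3 the log2 difference was 0.067, −0.059 and −2.91. The fitted log2 fold change of −0.90 (SE 0.69, adjusted p = 0.973 in edgeR) became 0.0034 without pair 3.

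The promoters of *Cd34* and *Ptprc* are shown because these 2 genes were the steadiest and the most variable of the 7 across libraries. RefSeq promoter windows of GRCm38.p6, which run from 250 bases before to 50 after the annotated start, were at hand for 5 of the 7 genes, namely *Cd34*, *Ptprc*, *Nt5e*, *Prom1* and *Alcam*. Capitals mark GGAA or its reverse complement TTCC, the core of sites of ETS transcription factors, a family that includes regulators of both blood and endothelial genes. The window of *Cd34* is chr1:194938571-194938870 on the plus strand. The first window of *Ptprc* is chr1:138175256-138175555 on the minus strand.
*Cd34*: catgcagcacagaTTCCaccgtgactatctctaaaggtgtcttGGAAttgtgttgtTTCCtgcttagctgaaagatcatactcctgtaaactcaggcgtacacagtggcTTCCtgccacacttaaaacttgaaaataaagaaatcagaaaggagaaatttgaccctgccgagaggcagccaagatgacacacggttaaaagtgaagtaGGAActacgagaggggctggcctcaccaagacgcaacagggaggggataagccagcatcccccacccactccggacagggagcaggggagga
*Ptprc*: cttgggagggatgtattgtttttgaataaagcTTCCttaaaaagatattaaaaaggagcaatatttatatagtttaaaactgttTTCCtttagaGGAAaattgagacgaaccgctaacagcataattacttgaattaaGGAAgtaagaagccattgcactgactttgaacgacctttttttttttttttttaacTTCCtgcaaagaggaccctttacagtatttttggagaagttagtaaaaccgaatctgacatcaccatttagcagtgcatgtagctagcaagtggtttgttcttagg
Each of these windows holds 5 such cores, and a second window of *Ptprc* (chr1:138175077-138175376, not printed) holds 2, against a median of 3 over 32851 RefSeq promoter windows, of which 95.98% hold at least 1. A match is a description of letters only, and the core is present in nearly all windows. The longer letters GAGGAA, which contain GGAA and resemble sites of the blood factor PU.1, occur once in the first *Ptprc* window, in neither the second nor that of *Cd34*, and in 28.28% of all windows. TATAAA occurs once in the first *Ptprc* window, on the strand opposite to the gene, so that the printed letters are TTTATA. That match begins 187 bases before the start. TATAAA does not occur in the second window, and it occurs in 13.62% of all windows. The first *Ptprc* window has 33.67% G and C and 4 CpG, the second has 39.33% and 2 CpG, and that of *Cd34* has 50% and 7 CpG, whereas the windows of *Nt5e* (71%, 23 CpG) and *Alcam* (69.67%, 25 CpG) are rich in both. The median over all windows was 52.67% and 7 CpG. All motifs were searched on both strands.

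*Prom1* (ENSMUSG00000029086) lies on the minus strand of chromosome 5 from 43993620 to 44102032. It had 38.5, 31.2 and 59.5 CPM in wt and 59.0, 28.4 and 36.3 CPM in the flt3L-/- labelled group. It was higher in the flt3L-/- library of pair 1 and lower in those of pairs 2 and 3, with differences of 0.62, −0.14 and −0.71 on the log2 scale. The fitted log2 fold change was −0.080 (SE 0.28, adjusted p = 0.986 in edgeR) and became 0.24 without pair 3. The gene Gm16401 covers 5.91% of the exon bases of *Prom1*, and 264 of 7768 (3.40%) of its 81-base exon stretches occur in other genes. The reads carry no strand.

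*Nt5e* (ENSMUSG00000032420) lies on the plus strand of chromosome 9 from 88327197 to 88372092. The wt libraries had 22.3, 22.4 and 31.9 CPM, and the flt3L-/- labelled group had 20.5, 27.2 and 17.7 CPM. Pair 3 again held the highest and the lowest level. The log2 differences were −0.13, 0.28 and −0.85, and the fitted value was −0.23 (SE 0.26, adjusted p = 0.973 in edgeR), or 0.077 without pair 3.

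*Thy1* and *Alcam* were at the lower edge of what was tested. *Thy1* (ENSMUSG00000032011), on the plus strand of chromosome 9 from 44043384 to 44048579, had 7, 37 and 35 counts in wt and 7, 36 and 14 counts in the flt3L-/- labelled group, which is 0.272, 1.43 and 1.30 CPM against 0.255, 1.53 and 0.554 CPM. The 95% Poisson interval of the 7 counts in the wt library of pair 1 was 0.109 to 0.560 CPM, and that of the 14 counts was 0.303 to 0.929 CPM. The level was low in both libraries of pair 1 and high in both of pair 2. Its fitted log2 fold change was −0.42 (SE 0.55, adjusted p = 0.974 in edgeR), and it was 0.018 without pair 3. *Alcam* (ENSMUSG00000022636), on the minus strand of chromosome 16 from 52248996 to 52454074, had 44, 39 and 97 counts in wt (1.71, 1.51 and 3.61 CPM) and 24, 43 and 22 counts in the flt3L-/- labelled group (0.873, 1.82 and 0.870 CPM). The wt library of pair 3 was the highest, with a 95% Poisson interval of 2.93 to 4.40 CPM, above the intervals of the other 5 libraries. The log2 differences of *Alcam* were −0.91, 0.26 and −1.96. Its fitted value of −0.91 (SE 0.58, adjusted p = 0.973 in edgeR) was −0.34 without pair 3.

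**Figure D2:**
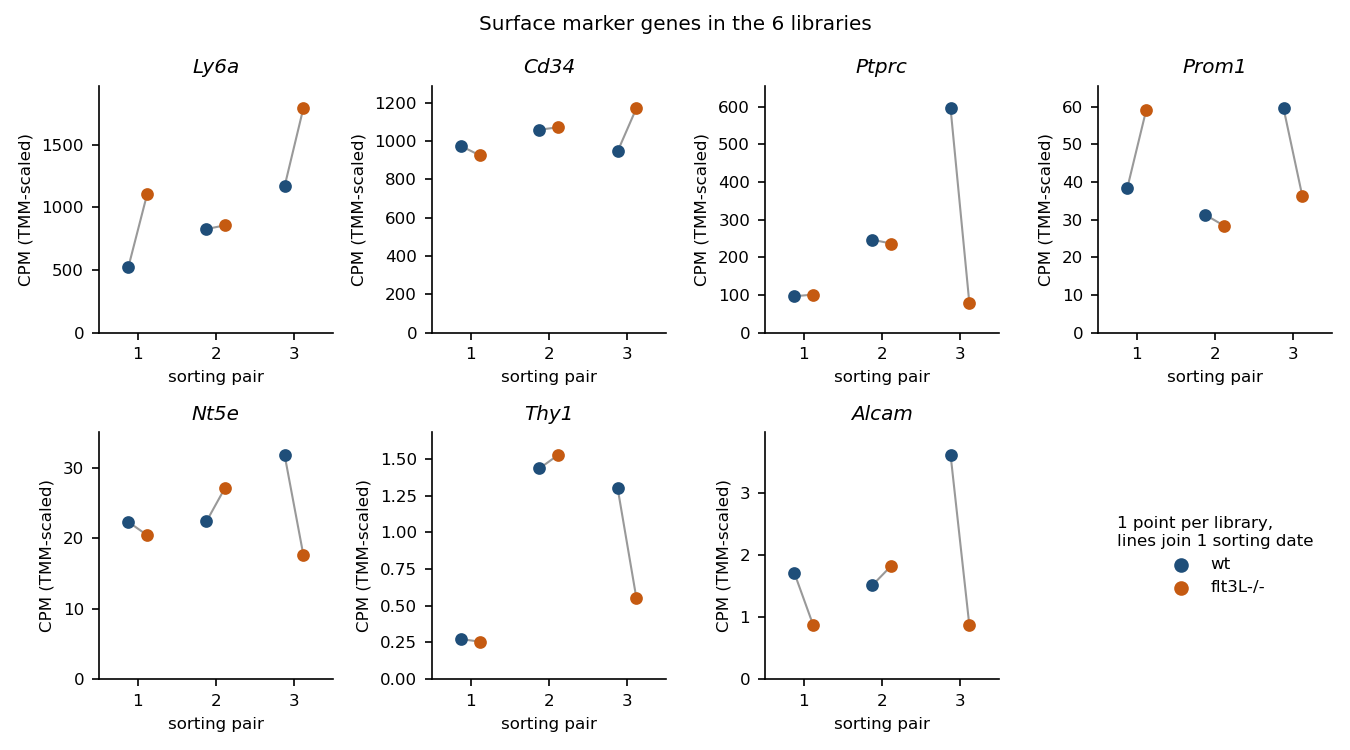
CPM of each of the 7 genes (linear axes from 0, a scale of its own in each panel) against the sorting pair, with blue points for wt, orange points for flt3L-/- and lines that join the 2 libraries of 1 date. The points of *Ly6a* rise from wt to flt3L-/- in each pair, those of *Cd34* lie close together, and the fall of *Ptprc* from 595 to 79.2 CPM is found in pair 3 only.

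None of the 7 genes passed the test of genotype. With an adjusted p under 0.05, edgeR called 0 of the 7, where 0 of all 13475 genes (0%) were called. At an unadjusted p under 0.05 there were 0 of the 7, against 484 genes or 3.59% of all (1.11% higher and 2.49% lower). DESeq2 called 0 of the 7 as well and gave an unadjusted p under 0.05 to 1 of them, *Ly6a*. The study, with the same stated filter, normalization and date covariate in edgeR, listed genes that passed, none of them among the 7. The edgeR fit used here did not reproduce those calls. In all 7 the levels of the groups overlapped, whereas over all genes 2.92% had all wt libraries above the others and 3.53% had all of them below. *Ly6a* was the 1 gene with the same direction in 3 of 3 pairs, which 14.2% of all genes showed as a rise and 11.5% as a fall. The median log2 fold change of the 7 was −0.23, beside −0.00027 over all genes. This median was the value of *Nt5e*, which was 0.077 without pair 3.

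**Figure D3:**
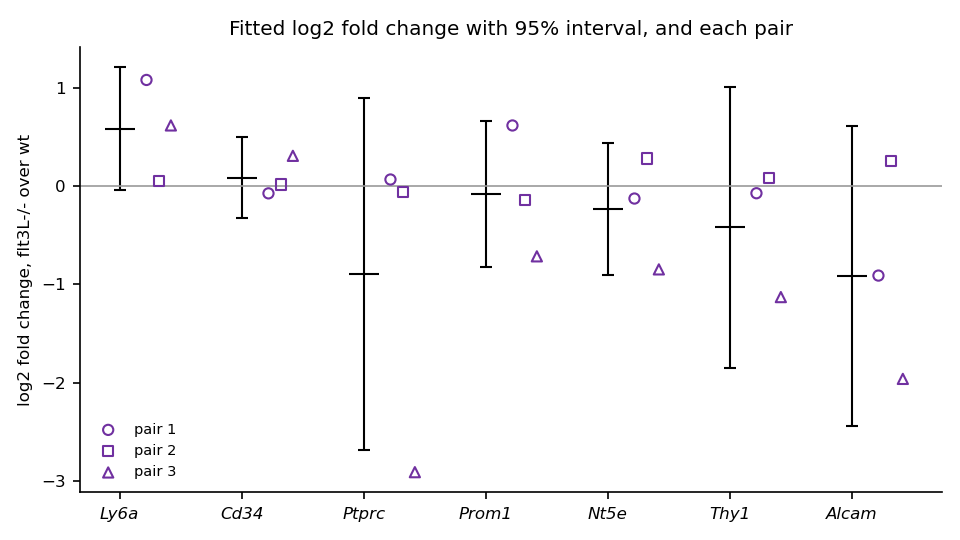
Fitted log2 fold change of the 7 genes, flt3L-/- over wt (black dash), with its 95% interval (black bar), and the log2 difference of each pair (circle, square and triangle for pairs 1, 2 and 3). All 7 intervals hold 0, and the triangles of 5 genes lie lowest of their gene's 3 symbols.

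The sorting dates were compared as well, and none of the 7 genes passed that test. With genotype kept in the model, 0 of the 7 genes had an adjusted p under 0.05 for date in edgeR's quasi-likelihood test, as had 0 of all genes (0%), and 1 of the 7 had an unadjusted p under 0.05, against 8.28% of all genes. DESeq2 called 403 of all genes for date and none of the other 6 genes, and gave *Thy1* no adjusted p. The 1 gene was *Thy1*, whose fitted dates spanned 2.48 on the log2 scale (unadjusted p = 0.0441 and adjusted p = 0.598 in edgeR). *Ly6a* spanned 0.91 (unadjusted p = 0.0514), highest in pair 3 in both groups, and *Ptprc* spanned 1.39 (unadjusted p = 0.276). Which gene had an unadjusted p under 0.05 depended on the fit. With DESeq2 it was 0.00593 for *Ly6a* (adjusted p = 0.114) and 0.0678 for *Thy1*, and with upper-quartile factors in edgeR it was 0.0294 and 0.0392. The span of *Cd34* was 0.17. The median span was 0.72 for the 7 genes and 0.42 for all genes. For *Ptprc* the date term averages over 2 very different libraries of pair 3, and it therefore says little of either.

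Ratios of 2 genes within a library do not depend on scaling between libraries, and 3 were compared. *Cd34* over *Ptprc*, the RNA counterpart of the markers by which CD45- CD34+ cells are gated, was 10.1, 4.30 and 1.59 in wt and 9.17, 4.54 and 14.8 in the flt3L-/- labelled group. The log2 difference was −0.14, 0.076 and 3.22 by pair, so that the mean difference of 1.05 rested on pair 3 and was −0.032 without it (exact two-sided sign-flip permutation test, p = 0.75, n = 3 pairs). *Ly6a* over *Pecam1*, the gene of CD31, was 0.599, 0.715 and 0.957 in wt and 0.783, 0.850 and 1.18 in the flt3L-/- labelled group. It was higher in the flt3L-/- library of each pair, by 0.39, 0.25 and 0.30, with a mean of 0.31 ± 0.070 (SD, n = 3 pairs). The exact sign-flip p was 0.25, which is the smallest that 3 pairs can give, and the value adjusted over the 3 ratios was 0.75. *Cd34* over *Pecam1* differed by −0.77, 0.22 and −0.013, with a mean of −0.19 (exact sign-flip p = 0.75, n = 3 pairs). *Pecam1* itself had 872, 1156 and 1219 CPM in wt and 1410, 1007 and 1523 CPM in the flt3L-/- labelled group, with a log2 fold change of 0.27 (SE 0.22, adjusted p = 0.973 in edgeR). RNA of *Pecam1* was thus abundant in all 6 libraries. The study sorted either the complete SP or its Sca1+ CD31- fraction, and the labels of these libraries name the SP only, so that a selection on Sca-1 and CD31 is not known here.

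The level of *Ptprc* moved with that of other leukocyte genes. The 12 pan-leukocyte markers, of which *Ptprc* is not one, all passed the filter, none was at 0, and their summed level was 252, 743 and 1352 CPM in wt and 360, 864 and 212 CPM in the flt3L-/- labelled group. Pair 3 thus held the highest and the lowest sum too, with a range of 6.38 times over the 6 libraries. The level of *Ptprc* was equal to 27.4% to 44.0% of that sum, a range of 1.61 times. Of the 12 markers, 0 had an adjusted p and 0 an unadjusted p under 0.05, and 0 were lower in 3 of 3 pairs. Their median log2 fold change was −0.40, with medians of 0.90, 0.24 and −2.84 in pairs 1, 2 and 3. *Laptm5* and *Lcp1*, the most abundant of them, had differences of −3.02 and −2.37 in pair 3. The part of other leukocytes in the difference of *Ptprc* was not tested.

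Markers of single kinds of leukocyte were summed as well. The 12 markers of macrophages and monocytes summed to 60.7, 684 and 1847 CPM in wt and to 338, 1071 and 108 CPM in the flt3L-/- labelled group. *Lyz2*, the most abundant of the 12, had 17.1, 506 and 1525 CPM in wt and 245, 843 and 67.3 CPM in the flt3L-/- labelled group. The larger sums were thus mostly of that 1 gene. Of the 12 markers, 1 was higher and 2 were lower in 3 of 3 pairs (14.2% and 11.5% of all genes were). The sum of the 8 neutrophil genes, 6 of which were tested, was 2.10, 113 and 89.6 CPM in wt and 143, 238 and 6.76 CPM in the others. Both sums were lowest in the wt library of pair 1. The median log2 difference of the tested neutrophil genes was 6.20, 1.12 and −3.70 in pairs 1, 2 and 3. For the macrophage and monocyte markers it was 0.81, 0.42 and −2.27. By these medians pairs 1 and 3 differed in opposite directions, so leaving out pair 3 does not leave 2 like pairs for the neutrophil genes. The 12 markers of T and NK lymphocytes summed to 133, 309 and 619 CPM in wt and to 106, 306 and 95.8 CPM in the flt3L-/- labelled group. Of these 12, 2 had an unadjusted p under 0.05, both lower (2.49% of all genes were), and 5 were lower in 3 of 3 pairs (11.5% of all genes were). They were *Klrb1c*, a receptor of NK cells, with a log2 fold change of −2.11 (unadjusted p = 0.0169), and *Gzma*, a protease of cytotoxic granules, with one of −1.74 (unadjusted p = 0.0293), and neither passed the adjustment in edgeR (adjusted p = 0.973 for both). The 5 were *Klrb1c*, *Gzma*, *Gzmb*, *Nkg7* and *Ncr1*, genes of NK and cytotoxic cells. The other genes of the list were named after their values were seen, and they went both ways. *Cd3e*, *Cd3d* and *Cd8a* had log2 fold changes of 0.22, 0.39 and 0.36, and *Cd3g*, *Cd2*, *Lck* and *Il7r* had −0.30, −0.84, −0.46 and −0.096. The count with an unadjusted p under 0.05 was 5 in DESeq2 and 1, 6 and 5 without pairs 1, 2 and 3. All 8 B cell markers were under the filter, with sums of 1.20 to 3.54 CPM. *Thy1*, which mouse T cells carry, was equal to 0.204% to 0.578% of the summed lymphocyte level, a range of 2.83 times.

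**Figure D4:**
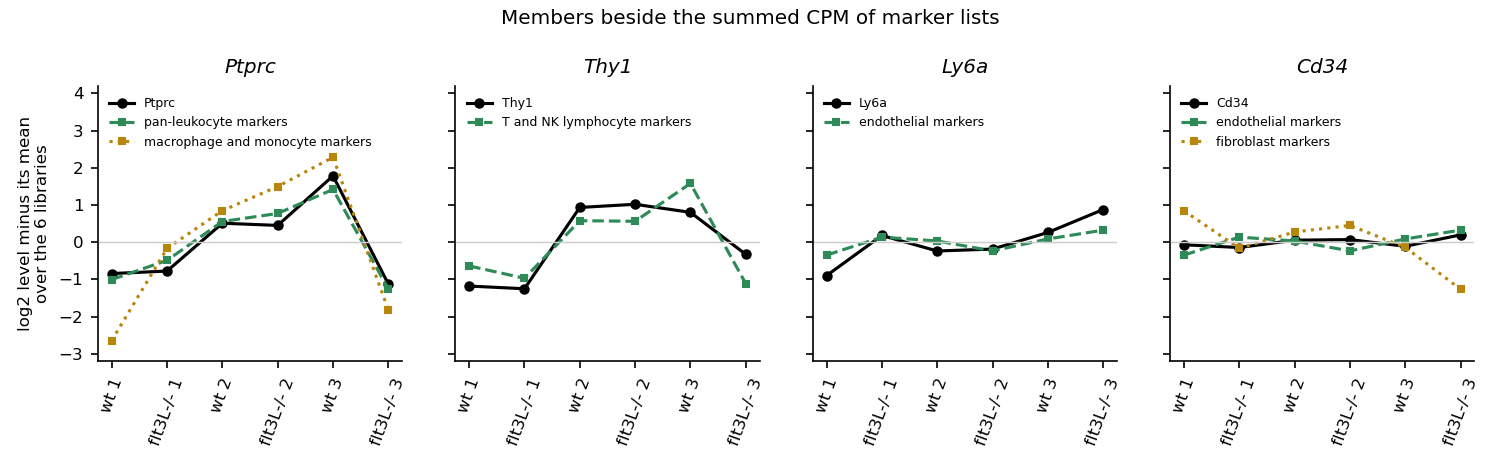
Log2 level of *Ptprc*, *Thy1*, *Ly6a* and *Cd34* (black) and of the summed CPM of marker lists (green and gold) in the 6 libraries, each less its own mean. *Ptprc* and the pan-leukocyte sum both peak in wt 3 and are lowest in flt3L-/- 3, whereas *Cd34* stays within 0.20 of its mean.

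*Ly6a* and *Cd34* were set beside the endothelial and fibroblast markers. The endothelial sum ranged 1.59 times over the 6 libraries, and the level of *Ly6a*, which is not among the markers, was equal to 5.35% to 11.5% of it, a range of 2.15 times. This ratio was larger in the flt3L-/- library of each pair, with 8.08% against 5.35%, 8.10% against 6.50% and 11.5% against 8.84%. Of the 12 endothelial markers 0 had an unadjusted p under 0.05, and their median log2 fold change was 0.23. For *Cd34*, which is in neither list, the ratio to the endothelial sum ranged 1.50 times and that to the fibroblast sum ranged 5.18 times. Of the 12 fibroblast markers 3 had an unadjusted p under 0.05, all lower (2.49% of all genes were), with a median of −0.64 over the list. This count was 5 in DESeq2, 0 without the pairing and 1, 11 and 0 without pairs 1, 2 and 3. The most abundant were *Gsn* and *Dcn*, with log2 fold changes of −0.61 and −0.62, and *Col3a1*, which encodes a fibrillar collagen, had −1.02 (unadjusted p = 0.0141, adjusted p = 0.973 in edgeR). *Cd34* was −0.074, 0.017 and 0.31 in the pairs where the fibroblast markers had medians of −0.88, 0.16 and −1.35. Of the 11 cardiomyocyte markers tested, 6 were higher in 3 of 3 pairs (14.2% of all genes were). With an unadjusted p under 0.05 there was 1 of the 11 (*Tnni3*, log2 fold change 0.40), where 1.11% of all genes were higher. This count was 0 when counts were scaled by library size only. The summed levels of cardiomyocyte markers were 170 to 260 CPM in wt and 263 to 301 CPM in the others. Pericyte and smooth muscle markers summed to 453 to 921 CPM in wt and 283 to 574 CPM in the other group, and 2 of 12 had an unadjusted p under 0.05, both lower (*Myh11* and *Abcc9*), with 0, 5 and 1 without pairs 1, 2 and 3. Erythroid markers summed to 244 to 420 CPM in wt and 373 to 492 CPM in the others. The sums were 85.6 to 88.4 and 74.9 to 106 CPM for Schwann cell markers, and 22.3 to 70.8 and 38.9 to 61.3 CPM for mesothelial markers. What part the cell makeup had in the levels of the 7 genes was not tested.

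For each gene, the genes with the most similar profile over the 6 libraries were found by the root-mean-square difference of log2 CPM, each less its own mean, among 9304 genes of at least 10 CPM (9305 for *Thy1* and *Alcam*, which are under that level). The libraries share their depth and cell makeup, so these are descriptions. For *Ptprc* the nearest was *Rasal3*, a Ras GTPase-activating protein of blood cells, at 0.067, with 16.6, 39.9 and 88.2 CPM in wt and 16.4, 38.1 and 12.4 CPM in the flt3L-/- labelled group. *Arhgap45* followed at 0.12. For *Ly6a* they were *St3gal1*, a sialyltransferase, at 0.10 and *Ly6c1*, a neighbour in the Ly6 family, at 0.11. *Ly6c1* had 718, 1088 and 1622 CPM in wt and 1716, 1179 and 2174 CPM in the flt3L-/- labelled group, and it shares a part of its sequence with *Ly6a*. For *Thy1* the nearest were *Dpp4* at 0.32 and *Ccr7*, a chemokine receptor of lymphocytes and dendritic cells, at 0.33. These were the largest distances of the 7 genes. The median over candidates was large for *Thy1* too (1.01), and its counts were low, so its distances are not comparable with those of the other genes. *Cd34* was nearest to *Ngly1* (0.029) and *Exosc5* (0.035), which varied little themselves. *Nt5e* was nearest to *Bcl2*, an inhibitor of apoptosis, and *Ddb2* (0.066 each), *Prom1* to *Rai14* (0.12) and *Slc4a7* (0.15), and *Alcam* to *Serpinb6b* (0.16) and *Stk26* (0.23). The median over all candidates was between 0.24 for *Cd34* and 1.05 for *Ptprc*.

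Lists of related genes were read from the same test, and none held a gene with an adjusted p under 0.05 in edgeR. Some genes stand in several lists. In the Ly6 family, 15 of 28 genes were tested, with a median log2 fold change of 0.24. Of the 15, 1 was higher with an unadjusted p under 0.05 (1.11% of all genes were), and 5 were higher in 3 of 3 pairs (14.2% of all genes were). The abundant members *Ly6e* and *Ly6c1* had log2 fold changes of 0.37 (0.53, 0.00023 and 0.57 in the pairs) and 0.60 (1.26, 0.12 and 0.42). *Plaur*, the urokinase receptor, had 0.61 (unadjusted p = 0.0308), from 85.7, 72.7 and 95.5 CPM in wt to 101, 103 and 203 CPM. *Lynx1*, a modulator of nicotinic receptors, had −0.89 (unadjusted p = 0.0624), and *Lypd2* had no count in any library. As for *Ly6a*, pair 2 showed the smallest differences in *Ly6e*, *Ly6c1* and *Lynx1*.

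Of 43 GPI-anchored proteins, among them again *Ly6c1*, *Ly6c2*, *Ly6e*, *Gpihbp1*, *Plaur* and *Cd59a* of the Ly6 family, 37 were tested (median −0.064). At an unadjusted p under 0.05, 1 was higher and 2 were lower (1.11% and 2.49% of all genes were). In 3 of 3 pairs, 8 were higher and 5 lower (14.2% and 11.5% of all genes were). The 1 higher was *Plaur*, and 5 of the 8 were the Ly6 family genes already counted. *Gpc1*, a heparan sulfate proteoglycan, had the smallest p of the list, with a log2 fold change of −0.99 (unadjusted p = 0.0115) and 18.6, 16.8 and 12.7 CPM in wt against 11.1, 10.3 and 4.35 CPM. The 27 tested enzymes and subunits that build and attach the anchor had a median of −0.036, and 6 of them were lower in 3 of 3 pairs (11.5% of all genes were). *Pign*, which modifies the anchor with ethanolamine phosphate, had −0.53 (unadjusted p = 0.0211), and *Pigk*, the protease of the complex that attaches it, had −0.28 (unadjusted p = 0.114).

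Around *Cd34*, a list of sialomucins and selectins also held the adhesion molecule *Mcam* and the intracellular adaptors *Crkl* and *Slc9a3r1*, and of its 15 genes 12 were tested and 0 had an unadjusted p under 0.05 (median 0.031). *Podxl*, a close relative of *Cd34* in blood vessels, averaged 1086 CPM in wt and 1054 CPM in the other group, and *Cd164* had 351 and 339 CPM. *Selplg*, the selectin ligand of leukocytes, had log2 differences of −0.17, −0.18 and −3.57 in the pairs. *Mcam* had 0.30 (unadjusted p = 0.192), and *Glycam1* had no count. Of the 20 partners, substrates and regulators of CD45, 18 were tested and 0 had an unadjusted p under 0.05 (median −0.019). The medians in pairs 1, 2 and 3 were 0.48, 0.16 and −0.86. The kinase genes *Jak1* and *Fyn* were the most abundant, with log2 fold changes of −0.066 and 0.24, and *Pag1* and *Lgals1* had the smallest p-values, with −0.86 and −0.64.

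Around *Nt5e*, 19 of 24 genes of nucleotide and adenosine handling were tested and 0 had an unadjusted p under 0.05 (median −0.22). *Alpl*, an alkaline phosphatase that also makes adenosine, had 460 and 481 CPM on average in the groups, and *Cd38*, an NAD hydrolase, had 302 and 313 CPM. *Ada*, which deaminates adenosine, was higher in 3 of 3 pairs with a log2 fold change of 0.61 (unadjusted p = 0.0654), and *P2ry2*, a nucleotide receptor, had 0.49 (unadjusted p = 0.122). Around *Alcam*, 22 of 27 adhesion molecules of the immunoglobulin superfamily were tested (median 0.033), and 2 had an unadjusted p under 0.05, both higher (1.11% of all genes were). They were *Icam1*, with a log2 fold change of 0.49 (unadjusted p = 0.0312), and *Icam2*, with 0.41 (unadjusted p = 0.0358), both ligands of leukocyte integrins. *Icam2* had 147, 193 and 224 CPM in wt and 203, 220 and 335 CPM in the flt3L-/- labelled group. *Jam2*, abundant in both groups, had 0.0093. Of 28 tested genes of 30 other progenitor surface markers, 0 had an unadjusted p under 0.05 (median −0.036). *Kdr*, a VEGF receptor, had −0.17, *Itgb1*, an integrin subunit, had 0.12, and the PDGF receptors *Pdgfra* and *Pdgfrb* had −0.84 and −0.63 (unadjusted p = 0.108 and 0.116).

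**Figure D5:**
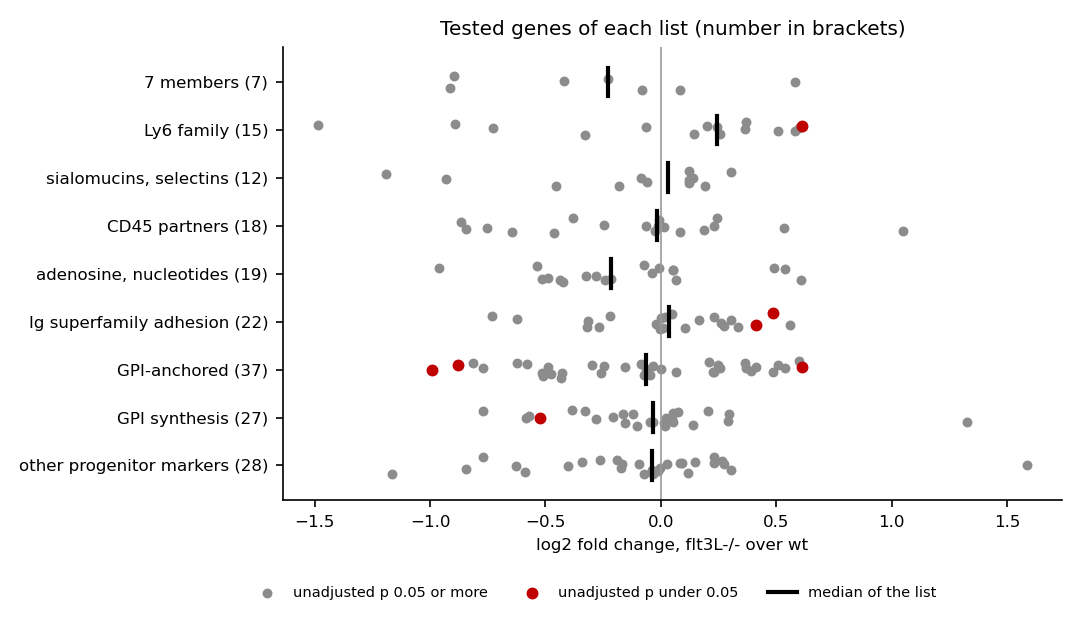
Log2 fold change, flt3L-/- over wt, of the tested genes of each list (1 point per gene, red where the unadjusted p was under 0.05), with the list median as a black line and the number of tested genes in brackets. Red points appear in 4 lists, and no gene of any list passed the adjustment over all genes.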

How the data were processed

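The deposited values are whole-number counts of reads per gene, which the authors made without normalization. Unstranded single reads of 81 bases were mapped to mm10 with STAR 2.5.2a, with at most 10 hits per read and random placement among equally good hits, and reads that began in an exon of Ensembl release 88 were counted with QuasR. The 6 count columns were matched to the samples by name, and 0 columns were left over. Gene symbols, coordinates and exons came from GENCODE M21 (GRCm38), which held 50376 of the 50600 gene identifiers.

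Genes that code for protein and exceeded 1 CPM in 2 or more libraries were tested in edgeR 4.0.16 (R 4.3.3) with library sizes summed over protein-coding genes (91.5% to 93.8% of the counts), TMM factors, glmQLFit and glmQLFTest (legacy = TRUE) and the sorting date as a covariate. The fit had a common dispersion of 0.0978 and 2 residual degrees of freedom, to which 2.79 prior degrees were added. P-values were Benjamini-Hochberg adjusted over 13475 genes. Differences within pairs used log2 CPM with a prior count of 2, and ratios of genes added 0.5 to each count. Low totals limit the precision of the rare genes, for which 95% Poisson intervals are given. The script was tested on simulated data.

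Pairs come from the sorting dates and the study's methods. With group means removed, libraries of 1 date correlated across genes by 0.180, 0.104 and 0.116, against −0.354 to 0.247 between dates. Between dates, wt 2 with flt3L-/- 1 (0.247) and wt 3 with flt3L-/- 2 (0.191) exceeded every value within a date. The check therefore does not single out the pairs used, and all statements by pair rest on the recorded dates. No library was a copy of another. Each library is a separate pool of animals. In the main fit, p-values rest on the spread between pools that is left after date and genotype, moderated across genes. Those of the ratios rest on the within-date differences.

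The genes described, the lists and the tests were chosen with earlier results of these data known. Named genes were the 7 genes, *Flt3l*, *Pecam1*, the 2 most abundant and the 2 with the smallest p of each list, and the 2 nearest profiles of each gene. Of the marker lists the text names those that bear on the sentence. Other normalizations, filters, biotypes, tools, designs and left-out pairs were tried.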

Additional observations from a re-analysis of the deposited data

How the results depend on the processing

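The number of genes called for genotype stayed at 0 under the alternatives tried except DESeq2, which called 21 (6 higher, 15 lower, 0 of the 7 genes). DESeq2 called 403 genes for sorting date. The count of genes with an unadjusted p under 0.05 for genotype was 262 without the replicate block, where 0 of the 7 genes were called, and that for date was 1974 when the year of sorting replaced the date. The unpaired fit turned no direction among the 7 genes, but with 1 library of each group per date this was nearly fixed in advance. With 1 pair left out, the genotype count ranged from 249 to 980, the genes called for date from 0 to 112, and those with an unadjusted p under 0.05 for date from 699 to 1887.

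Without pair 3 the log2 fold change reversed for *Cd34* (−0.029), *Ptprc* (0.0034), *Thy1* (0.018), *Nt5e* (0.077) and *Prom1* (0.24), as did *Cd34* over *Ptprc* (−0.032), and without pair 1 *Cd34* over *Pecam1* was 0.10. With 1 pair left out, the highest values were 0.83 for *Ly6a*, 0.16 for *Cd34* and −0.34 for *Alcam*. The lowest were 0.33 for *Ly6a*, −1.48 for *Ptprc*, −0.54 for *Thy1*, −0.51 for *Nt5e*, −0.43 for *Prom1* and −1.53 for *Alcam*. The ratios reached 1.65 for *Cd34* over *Ptprc* and −0.39 for *Cd34* over *Pecam1*. *Ly6a* had an unadjusted p under 0.05 with upper-quartile factors, with DESeq2, with no filter, with the sorting year and without pair 2, and under none was it called. With the longest transcript as length, the wt medians were 318 RPKM for *Cd34*, 42.9 for *Ptprc*, 9.40 for *Prom1*, 5.61 for *Nt5e* and 0.751 for *Thy1*. A filter of more than 1 CPM in all 6 libraries left 5 of the 7 genes tested, without *Thy1* and *Alcam*. Of 530 alternative values, 456 were labelled the same, 67 moved and 7 reversed. For fold changes the same meant an equal sign and side of the threshold, and for ratios an equal sign. For counts it meant within a set factor of the main count, and for levels within the SD of the wt libraries. Some values could not reverse, since date spans are never negative and a mean ratio difference is equal with and without pairing. Depth limits *Thy1* and *Alcam*, at 7 to 97 counts. No group of 3 libraries was tested for outliers.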
